A study of Mus musculus with 12 samples.

Results

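Interferon-stimulated genes and their regulators were followed in mouse prostate organoids that started from basal cells. The set was a list of 47 gene names, chosen as interferon receptors, the transcription factors of the pathway, nucleic acid sensors and well known antiviral effectors. Of these names, 46 matched a gene of the table and 1 was the newer symbol of a gene already listed (Ddx58), so the set held 46 of 24674 genes. The list was drawn up by the known roles of the genes, with earlier results of these data known.

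Organoids are 3-dimensional cultures that epithelial cells form in a gel. All cultures were labelled as wild type, of the C57BL/6 strain and derived from basal cells, and the labels set the groups apart by treatment. There were 12 samples in 4 groups of 3: Vehicle, UK5099, Butyrate, and UK5099+Butyrate (the combination). UK5099 blocks the carrier through which pyruvate enters mitochondria. Butyrate, a short-chain fatty acid, inhibits histone deacetylases. The labels do not say whether replicates came from separate animals, so p-values measure the spread between these samples. No interferon was among the labelled treatments, so every level described here is a basal level of the culture.

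Interferons are secreted proteins by which cells warn each other of infection. Type I interferons bind the receptor IFNAR and interferon gamma binds IFNGR, and both signal through STAT proteins. STAT2 and IRF9 are parts of the complex ISGF3, which binds a DNA motif called the interferon-stimulated response element (ISRE) near its target genes, many of which encode antiviral proteins. IRF3 and IRF7 act downstream of nucleic acid sensors and induce interferons themselves. Epithelial cells keep low levels of many of these transcripts without infection.

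Values were TPM, abundances divided by a gene's length and scaled to the same total in each sample. Differences are limma coefficients on log2(TPM + 1), and a call needed both a coefficient beyond -1 or 1 and an adjusted p under 0.01. The verbs rose and fell are used for called genes. The addition of 1 TPM compresses changes of low genes, so a gene with a vehicle mean of 1 TPM or less cannot reach a coefficient of -1. This held for 9 of the 46 members. The number of read pairs (fragments) behind each value could be recovered from the table, and limma's voom method on these fragments gave a second measure without that floor. Depth was 33251845 to 43498958 fragments per sample.

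Some libraries and levels need naming before the results. UK5099 replicate 1 differed from its group by a chi-square per degree of freedom of 6.29 and 6.503, and UK5099+Butyrate replicate 1 by 6.33 and 6.63, against 1.93 to 2.65 for every other pair of replicates. UK5099 replicate 1 was the highest of its group in 30 of the 46 members (65.2%), against 25.5% of the 13345 genes that averaged 1 TPM or more. The members' coefficient of variation had a median of 12.1% with UK5099 and of 6.46% with vehicle. Among members with at least 6 values under 1000 fragments, 8 of 32 had fractional numbers in most of these values, which means that reads were divided with other genes. They were Ifit3, Ifit3b, Ifi35, Oas1a, Oas1g, Herc6, Usp18 and Gbp7, and their levels are uncertain.

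The DNA motif of the pathway was common in front of these genes. RefSeq promoters of mouse build GRCm38.p6, from 250 bases before to 50 bases after the start site, matched 35 of the 46 members. The ISRE core (GAAA, any 2 bases, GAAA), searched on both strands, stood in 15 of the 35 promoters (42.9%), against 3.99% of the 27025 genes of the promoter table. The gamma-activated sequence (TTC, any 3 bases, GAA), bound by other STAT dimers, stood in 9 of the 35 (25.7%), against 9.55% of genes. The ISRE core was found in 3 of 4 IFIT promoters, 3 of 5 OAS promoters and 3 of 3 GTPase promoters, in 1 of 5 transcription factor promoters (Stat2) and in 0 of 4 receptor promoters. No match says only that these letters were not in the window. Oasl2, Irf7, Ifi44 and Cmpk2, which fell in all 3 comparisons with vehicle described below, had no ISRE core in the window. Stretches of 60 bases are printed below for hand-picked members with a match, whether or not they were called. They run 5′ to 3′ on the strand of the gene, with matches to the ISRE core on either strand in capitals.
Isg15 (chr4:156200856-156200915, minus strand): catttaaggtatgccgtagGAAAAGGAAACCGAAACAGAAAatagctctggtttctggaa
Ifit1 (chr19:34640770-34640829, plus strand): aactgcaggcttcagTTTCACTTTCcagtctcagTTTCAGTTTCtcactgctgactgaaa
Ifit3 (chr19:34583365-34583424, plus strand): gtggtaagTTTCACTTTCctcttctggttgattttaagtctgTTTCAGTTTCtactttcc
Ifit3b (chr19:34607761-34607820, plus strand): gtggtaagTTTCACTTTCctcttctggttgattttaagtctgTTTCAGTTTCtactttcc
Oas1a (chr5:120907508-120907567, minus strand): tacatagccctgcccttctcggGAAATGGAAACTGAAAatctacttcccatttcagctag
Bst2 (chr8:71537565-71537624, minus strand): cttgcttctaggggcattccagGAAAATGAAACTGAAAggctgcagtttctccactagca
Gbp3 (chr3:142559977-142560036, plus strand): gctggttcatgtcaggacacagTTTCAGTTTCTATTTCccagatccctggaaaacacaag
Stat2 (chr10:128270251-128270310, plus strand): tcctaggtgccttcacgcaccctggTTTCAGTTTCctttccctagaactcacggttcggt

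Isg15 has 3 overlapping matches in this stretch, which begins at position -97 from the start site, where -1 is the base before the start. Ifit1, Ifit3 and Ifit3b each have 2 separate matches. The stretches of Ifit3 and Ifit3b are identical, and reads of this pair were divided by the counting.

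With UK5099 most of the set was lower than with vehicle. Of the 46 members, 15 fell and 0 rose, where 0.912% of all 24674 genes were called lower, 0.928% higher and 1.84% in either direction. At an adjusted p under 0.05 with no limit on the coefficient, 43 members were lower, against 30.8% of all genes, and 0 were higher, also at an unadjusted p under 0.05. Voom on fragments called 25 lower, against 2.77% of all genes, and 0 higher, against 3.03%. The median coefficient of the members was -0.66, against -0.12 over genes that averaged 1 TPM or more. The 3 UK5099 samples lay below the 3 vehicle samples in 43 of 46 members, against 35.1% of all genes, and Ifnar2, Oasl1 and Mx1 overlapped.

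With butyrate the set was lower as well. Here 19 members fell and 0 rose, where 2.42% of all genes were called lower, 1.13% higher and 3.54% in either direction. At an adjusted p under 0.05, 42 were lower, against 40.1% of all genes, and Isg20 alone was higher, also at an unadjusted p. Voom called 23 lower, against 3.70% of all genes, and 0 higher, against 6.84%. With no limit on the coefficient, voom had 1 member higher at an adjusted p under 0.05 and 2 at an unadjusted p under 0.05. The median coefficient was -0.78, against -0.30 over genes that averaged 1 TPM or more. The butyrate samples lay below the vehicle samples in 44 members, against 44.2% of all genes, and above them in 1 (Isg20), against 15.9%.

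With the combination 22 members fell and 0 rose, where 4.63% of all genes were called lower, 1.79% higher and 6.42% in either direction. With no limit on the coefficient, 43 were lower at an adjusted p under 0.05, against 45.0% of all genes, and 0 higher, also at an unadjusted p. Voom called 26 lower, against 5.44%, and 0 higher, against 8.61%. With no limit on the coefficient, voom had 2 members higher at an adjusted p under 0.05. The median coefficient was -0.97, against -0.41 over genes that averaged 1 TPM or more. The samples of the combination lay below those of vehicle in 43 members, against 49.1% of all genes, and above them in 1 (Ifi27), against 15.6%. All 3 comparisons used the same vehicle samples. Scaling by median of ratios, which brings the median of all genes to 0, left 11, 13 and 16 members called lower in the 3 comparisons, against 0.600%, 1.25% and 1.66% of all genes, with medians of -0.52, -0.57 and -0.59. Under that scaling 42, 39 and 41 members were lower at an adjusted p under 0.05, and 0, 1 and 2 were higher. The share of all genes at that limit was not counted under this scaling, so these counts have no background beside them. The calls lost were those of Irf9, Ifit3b, Rsad2 and Xaf1 with UK5099, of Ifngr1, Ifngr2, Irf9, Oas1a, Gbp2 and Parp9 with butyrate, and of Ifnar1, Ifngr1, Ddx58, Sting1, Oas1a and Gbp2 with the combination.

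Summed over the 46 members, RNA abundance was 598 ± 21.1 TPM with vehicle, 332 ± 7.12 with UK5099, 318 ± 4.93 with butyrate and 249.1 ± 5.12 in the combination (SD, n = 3). Vehicle had the highest group mean in 42 of 46 members and the combination the lowest in 36. In bulk RNA, fewer cells that carry a transcript and less of it per cell cannot be told apart.

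**Figure D1:**
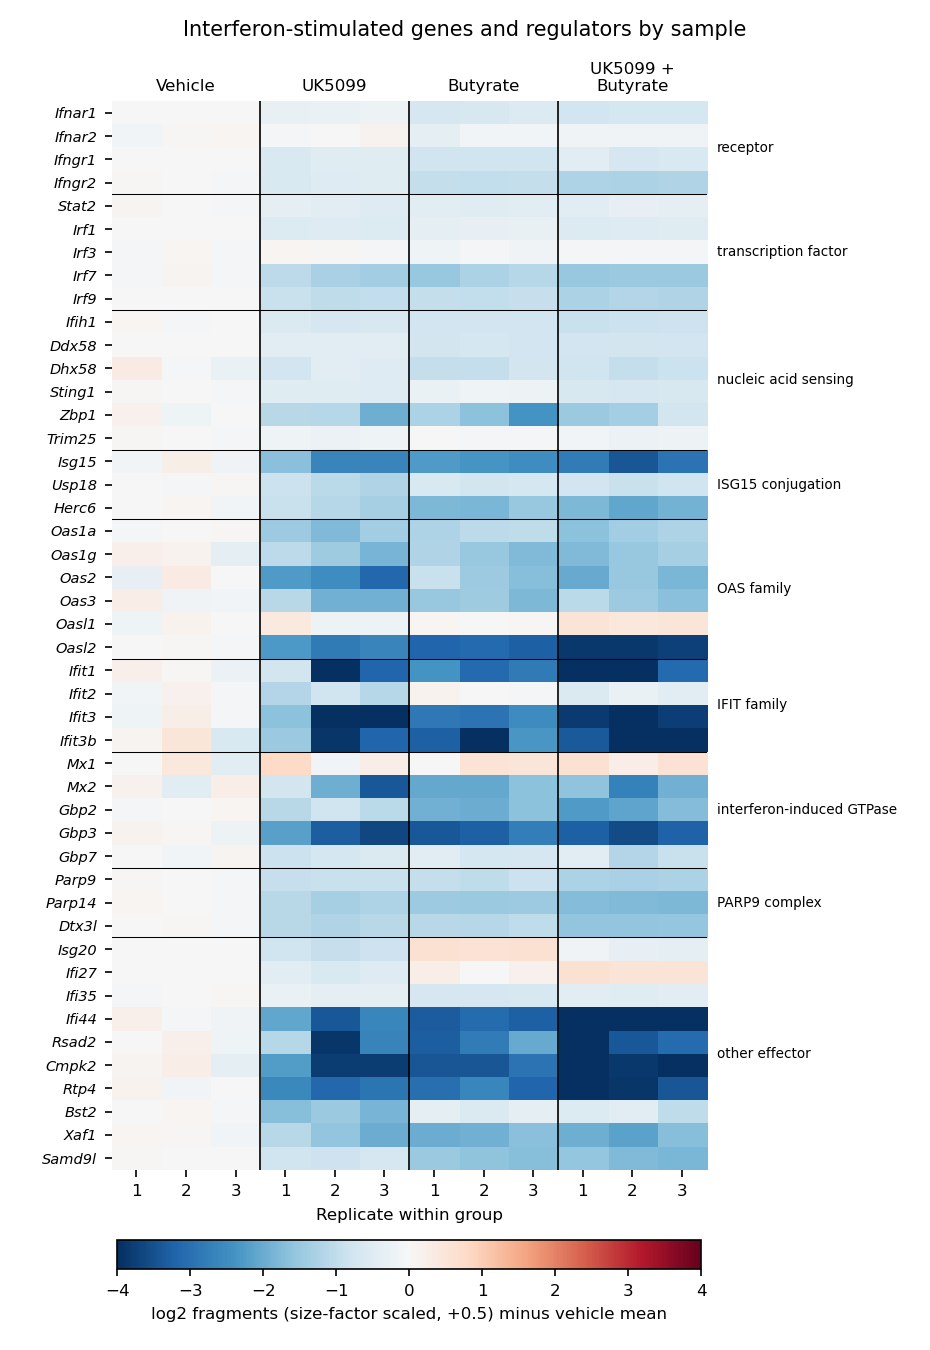
Each row is a member, grouped by role, and each column a sample, with 3 replicates per group. Colour is log2 of scaled fragments (plus 0.5) minus the vehicle mean, from -4 (blue, values beyond it drawn the same) to 4 (red); most rows are blue in the 9 treated samples, and Isg20, Ifi27, Oasl1 and Mx1 are among the exceptions. UK5099 replicate 1 is paler than replicates 2 and 3 in the rows of Ifit1, Ifit3, Rsad2 and Cmpk2.

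All 4 receptor chains were lower with butyrate than with UK5099 at an adjusted p under 0.05, on both scales, and 0 were called. On log2(TPM + 1), 32.2% of all genes were lower at that limit. Against vehicle 0 fell with UK5099, where 3 were lower at an adjusted p under 0.05, 2 fell with butyrate and 3 with the combination, and voom called 0, 0 and 1. Ifnar1, 1 of the 2 chains of the type I receptor, was at 19.1, 19.0 and 18.7 TPM with vehicle, 13.8, 14.02 and 14.9 with UK5099, 9.46, 9.65 and 10.5 with butyrate, and 8.01, 8.32 and 8.53 with the combination. The groups did not overlap. Its coefficient was -0.39 ± 0.04 (SE) with UK5099, -0.88 ± 0.04 with butyrate and -1.10 ± 0.04 in the combination. Butyrate lay below UK5099 by 0.49 ± 0.04 on this scale (limma adjusted p = 5.78e-06), which is under the limit of 1 for a call.

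Ifnar2, the other chain of that receptor, stood nearest to vehicle of the 4. It was at 2.96, 3.30 and 3.32 TPM with vehicle, 2.71, 2.85 and 3.23 with UK5099, 2.00, 2.35 and 2.40 with butyrate, and 2.07, 2.10 and 2.10 with the combination. The UK5099 and vehicle samples overlapped, and the UK5099 coefficient of -0.09 ± 0.06 (adjusted p = 0.27) turned to 0.02 under median of ratios scaling.

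The receptor for interferon gamma is built from Ifngr1, which binds the ligand, and Ifngr2, which is needed for signalling. Ifngr1 was at 70.5, 69.5 and 69.0 TPM with vehicle, 41.4, 44.5 and 45.3 with UK5099, 32.4, 32.2 and 32.3 with butyrate, and 37.5, 31.7 and 33.4 with the combination. It fell with butyrate (-1.09 ± 0.05, adjusted p = 1.04e-07) and with the combination (-1.01 ± 0.05, adjusted p = 1.05e-07), whose samples overlapped with each other. On the voom scale these coefficients were -0.79 and -0.56, short of the limit.

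Ifngr2 was at 34.0, 32.9 and 31.8 TPM with vehicle, 19.2, 20.7 and 21.3 with UK5099, 13.5, 13.3 and 13.6 with butyrate, and 10.01, 9.82 and 10.5 with the combination. The groups stood in that order with no overlap. It fell with butyrate (-1.23 ± 0.04) and with the combination (-1.61 ± 0.04), and the combination lay below UK5099 by 0.95 ± 0.04 (adjusted p = 4.79e-08).

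Among the 5 transcription factors, Irf7 and Irf9 fell in all 3 comparisons with vehicle, while Stat2, Irf1 and Irf3 were not called in any. Irf7, the factor that amplifies type I interferon, was at 37.5, 42.1 and 36.4 TPM with vehicle, 16.8, 14.1 and 13.5 with UK5099, 10.8, 12.8 and 14.01 with butyrate, and 9.75, 9.97 and 10.2 with the combination. The lowest vehicle sample was more than 2 times the highest treated sample. Its coefficients were -1.33 ± 0.10, -1.55 ± 0.10 and -1.85 ± 0.10, with adjusted p of 4.72e-06, 6.41e-07 and 1.21e-07.

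Irf9, the DNA-binding part of ISGF3, was at 49.2, 48.3 and 47.1 TPM with vehicle, 23.2, 21.2 and 22.1 with UK5099, 19.9, 19.4 and 20.6 with butyrate, and 14.5, 15.4 and 15.3 with the combination. Its groups did not overlap, and the level with the combination was 31.3% of vehicle. Its coefficients were -1.09 ± 0.04, -1.23 ± 0.04 and -1.61 ± 0.04. On the voom scale those of the single treatments were -0.97 and -0.96, just short of the limit, so these calls depend on the scale.

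Stat2, the partner of Irf9 in ISGF3, was at 9.68, 8.94 and 8.33 TPM with vehicle, 6.10, 5.83 and 5.68 with UK5099, 5.33, 5.17 and 5.41 with butyrate, and 4.80, 5.18 and 5.11 with the combination. All treated samples lay below vehicle, by coefficients of -0.54 ± 0.05, -0.66 ± 0.05 and -0.73 ± 0.05. Irf1, which interferon gamma induces, was at 37.1, 37.4 and 35.6 TPM with vehicle, 22.4, 23.0 and 22.8 with UK5099, 22.8, 23.4 and 24.1 with butyrate, and 18.03, 18.5 and 19.4 with the combination. The single treatments overlapped for Irf1, and the combination lay below both, with a coefficient of -0.94 ± 0.03 against vehicle.

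Irf3, which is activated by phosphorylation rather than by induction, stood nearest to vehicle. It was at 37.3, 40.7 and 36.4 TPM with vehicle, 35.9, 35.1 and 33.5 with UK5099, 27.3, 28.9 and 28.1 with butyrate, and 26.4, 26.2 and 26.3 with the combination. Its UK5099 coefficient of -0.12 ± 0.04 turned to 0.02 under median of ratios scaling and under voom, and its butyrate coefficient of -0.43 ± 0.04 shrank to -0.12 on the voom scale.

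**Figure D2:**
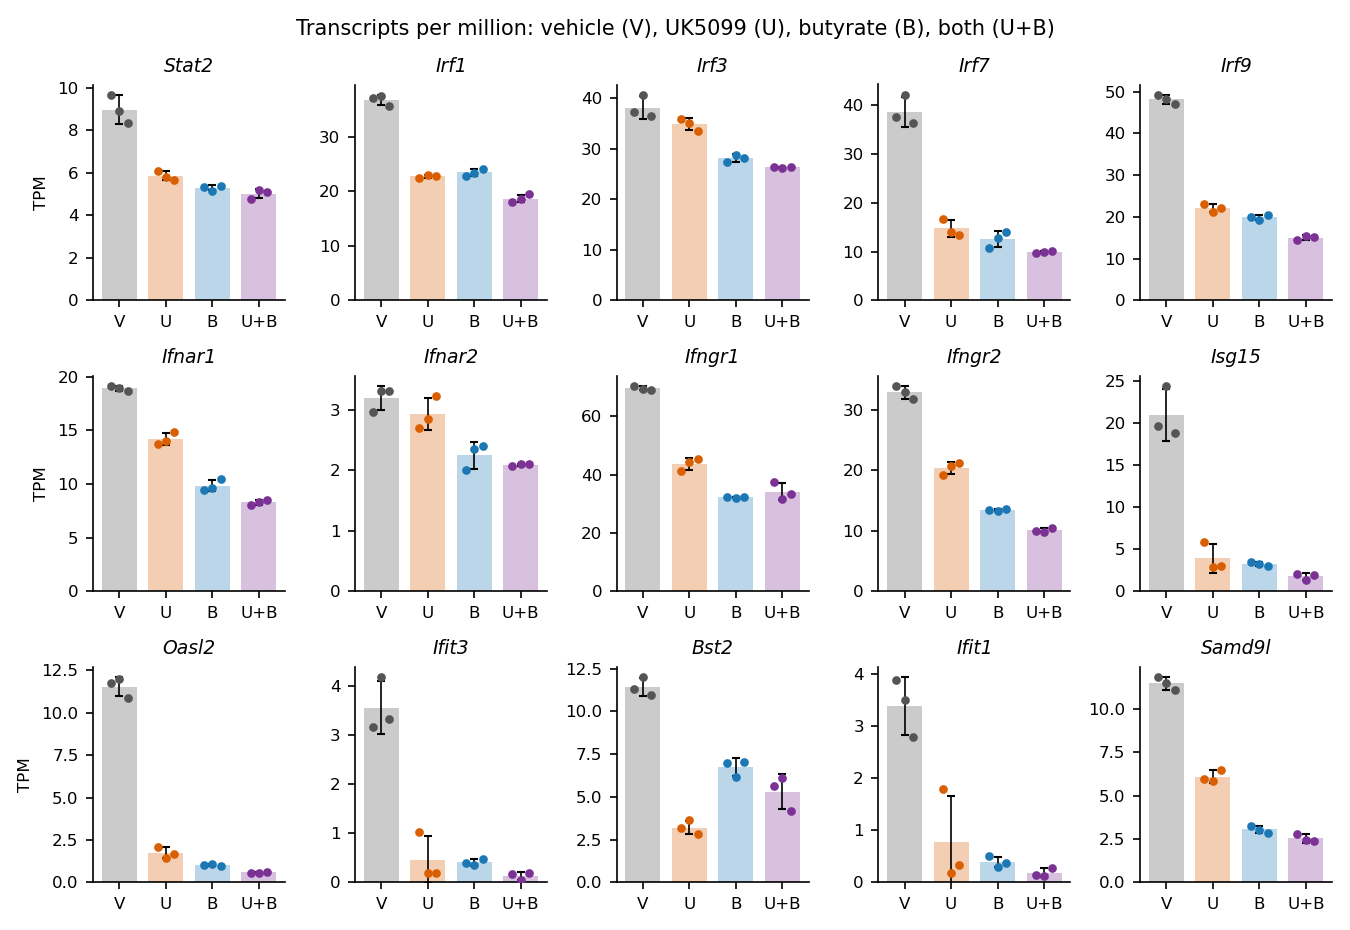
Each panel shows 1 gene, with TPM on the vertical axis from 0 and the groups V (vehicle), U (UK5099), B (butyrate) and U+B (combination). Bars are means, error bars are SD (n = 3) and points are samples. Isg15 and Oasl2 are far below vehicle in all treated samples, Bst2 is lowest with UK5099, and UK5099 replicate 1 stands above its group for Ifit1 and Ifit3.

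Sensors of foreign nucleic acid were lower by smaller steps. Of the 6, 0 fell with UK5099 or butyrate and 2 with the combination, although all 6 were lower at an adjusted p under 0.05 in each comparison. Voom called 1 of them, Zbp1, in each, and neither of those that fell with the combination, Ddx58 and Sting1. Ddx58 encodes RIG-I, a sensor of viral RNA, and was at 13.3 ± 0.288 TPM with vehicle (SD, n = 3). Its coefficients were -0.53 with UK5099, -0.94 with butyrate and -1.09 in the combination (SE 0.02 each). Sting1, the adaptor for cytosolic DNA, was at 69.8, 66.8 and 64.5 TPM with vehicle, 42.9, 43.1 and 42.9 with UK5099, 45.0, 47.4 and 46.9 with butyrate, and 30.7, 30.0 and 31.6 with the combination. Sting1 was at 64.1% of vehicle with UK5099, 69.3% with butyrate and 45.9% in the combination, with an interaction near 0 (0.05 ± 0.04, adjusted p = 0.505).

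Ifih1, which encodes the RNA sensor MDA5, and its relative Dhx58 had coefficients of -0.54 and -0.50 with UK5099, -0.73 and -0.78 with butyrate and -0.87 and -0.85 with the combination. Trim25, the ligase that acts on RIG-I, had coefficients of -0.32, -0.36 and -0.63, and of -0.18, -0.05 and -0.18 on the voom scale. Zbp1, a sensor of Z-form nucleic acids, had a vehicle mean of 0.27 TPM, from 19 to 27 fragments per sample, against 4 to 15 fragments in the treated samples. The voom coefficients of Zbp1 were -1.42 ± 0.36, -1.76 ± 0.39 and -1.20 ± 0.38.

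Isg15 had one of the largest coefficients on log2(TPM + 1) in each comparison with vehicle. That scale compresses low genes, and as a percent of vehicle several members with lower levels, such as Cmpk2, Ifi44 and Rtp4, were further down. Isg15 encodes a ubiquitin-like protein that is attached to other proteins during an interferon response, and it lies at chromosome 4, 156283912 to 156285254, in the table's coordinates. It was at 19.6, 24.4 and 18.8 TPM with vehicle, 5.83, 2.92 and 2.97 with UK5099, 3.44, 3.20 and 2.98 with butyrate, and 2.10, 1.35 and 1.92 with the combination. No treated sample came within a factor of 3 of the lowest vehicle sample. Its means were 5.35-fold, 6.52-fold and 11.69-fold lower than vehicle. The coefficients were -2.20 ± 0.21 (adjusted p = 2.29e-05), -2.37 ± 0.21 (6.14e-06) and -2.97 ± 0.21 (8.46e-07). Without UK5099 replicate 1, the UK5099 coefficient was -2.46.

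The other genes of ISG15 conjugation were lower too. Usp18, the protease that removes ISG15 and dampens the type I receptor, was at 3.94 ± 0.10 TPM with vehicle and had coefficients of -0.86, -0.73 and -0.92, none of them called, where voom gave -1.06 (called), -0.68 and -0.82. Herc6, the mouse ligase that attaches ISG15, was at 0.286 ± 0.021 TPM with vehicle. Its voom coefficients were -1.12 ± 0.14, -1.70 ± 0.15 and -1.92 ± 0.15, all called, while the floor held its log2(TPM + 1) coefficients between -0.20 and -0.29.

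The OAS family encodes oligoadenylate synthetases, which activate an RNA-degrading enzyme on contact with viral RNA, and relatives of them. Of 6 members, Oas1a and Oasl2 fell in all 3 comparisons, and voom also called Oas1g, Oas2 and Oas3 in each. Oasl2, at chromosome 5, 115034997 to 115050296, was at 11.8, 11.97 and 10.9 TPM with vehicle, 2.11, 1.46 and 1.68 with UK5099, 1.03, 1.07 and 0.956 with butyrate, and 0.569, 0.573 and 0.637 with the combination. The groups stood in that order with no overlap between them. Oasl2 had coefficients of -2.20 ± 0.07, -2.63 ± 0.07 and -2.98 ± 0.07, with adjusted p of 3.04e-08, 3.26e-09 and 7.61e-10.

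Its neighbour Oasl1 did not share this. It was at 1.09, 1.36 and 1.22 TPM with vehicle and at 1.25, 1.17 and 1.26 with the combination. The coefficients of Oasl1 were -0.08, -0.14 and 0.00, and on the voom scale the combination was higher by 0.47 ± 0.14 (adjusted p = 0.00622), so its direction depends on the scaling. Oas1a was at 4.17, 4.45 and 4.45 TPM with vehicle, 1.41, 1.15 and 1.52 with UK5099, 1.48, 1.67 and 1.73 with butyrate, and 1.01, 1.198 and 1.37 with the combination, with reads divided between near copies.

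IFIT proteins bind viral RNA and block its translation. Ifit1, Ifit3 and Ifit3b fell in all 3 comparisons and Ifit2 in none. Ifit3 was at 3.18, 4.19 and 3.33 TPM with vehicle, 1.02, 0.186 and 0.190 with UK5099, 0.387, 0.358 and 0.488 with butyrate, and 0.171, 0.0413 and 0.183 with the combination. Ifit1 was at 3.88, 3.50 and 2.79 TPM with vehicle, 1.80, 0.171 and 0.331 with UK5099, 0.505, 0.305 and 0.374 with butyrate, and 0.139, 0.132 and 0.282 with the combination. For both genes UK5099 replicate 1 stood far above its partners and below every vehicle sample.

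The Ifit1 coefficient with UK5099 was -1.42 ± 0.28 with all samples (adjusted p = 0.00241) and -1.81 without UK5099 replicate 1 (6.96e-06). That of Ifit3 moved from -1.68 ± 0.19 to -1.94. In fragments, Ifit1 had 205 to 235 per vehicle sample, 122, 12 and 25 with UK5099, 24 to 43 with butyrate and 12 to 27 in the combination. Ifit2 was at 0.963, 1.16 and 0.964 TPM with vehicle, 0.409, 0.528 and 0.418 with UK5099, 0.900, 0.808 and 0.782 with butyrate, and 0.497, 0.618 and 0.546 with the combination. On the voom scale Ifit2 fell with UK5099 (-1.03 ± 0.14), stood at 0.02 ± 0.11 with butyrate, and was higher with butyrate than with UK5099 by 1.05 ± 0.13 (adjusted p = 1.84e-07).

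Interferon-induced GTPases were mostly under the floor. Gbp2, which acts at the membranes of intracellular pathogens, was at 2.02, 2.14 and 2.21 TPM with vehicle, 0.876, 1.09 and 0.910 with UK5099, 0.450, 0.427 and 0.545 with butyrate, and 0.313, 0.353 and 0.467 with the combination. It fell with butyrate (-1.08 ± 0.06) and with the combination (-1.18 ± 0.06), and voom also called UK5099 (-1.01 ± 0.12). Under median of ratios scaling its coefficients with butyrate and with the combination were -0.90 and -0.96, short of the limit. For Gbp3 there were 61 to 67.5 fragments per vehicle sample, 5 to 13.3 with UK5099, 6.10 to 9 with butyrate and 5 to 7 in the combination. Its voom coefficients were -3.04 ± 0.35, -3.13 ± 0.36 and -3.35 ± 0.36, against -0.65, -0.68 and -0.70 on log2(TPM + 1). Mx2 behaved likewise (voom -2.10, -1.94 and -2.08), while its relative Mx1 was at 0.375, 0.491 and 0.264 TPM with vehicle, overlapped with every treatment and had voom coefficients of 0.35 to 0.53, none with an adjusted p under 0.05.

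Over all 9 members that cannot reach -1, voom called 7 lower in each of the 3 comparisons with vehicle: Gbp3, Herc6, Mx2, Oas2, Oas3, Rtp4 and Zbp1. The other two were Gbp7 and Mx1. Rtp4, a chaperone of receptor proteins that interferon induces, had 347 to 478 fragments per vehicle sample, 45 to 65 with UK5099, 45 to 65 with butyrate and 25 to 41 in the combination.

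**Figure D3:**
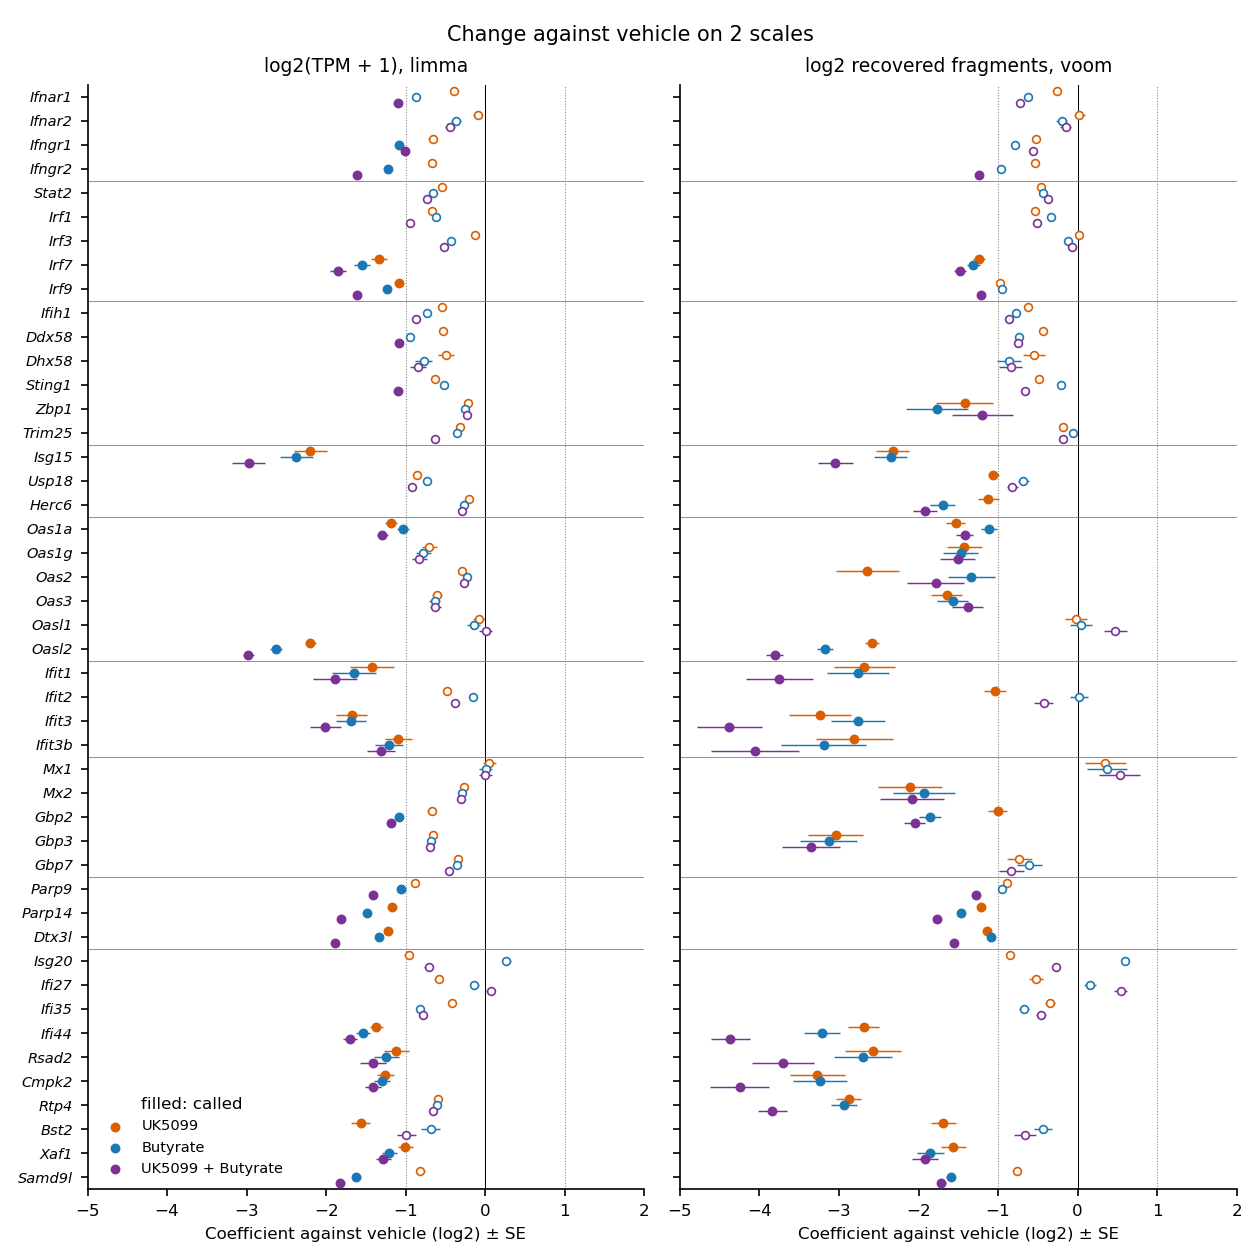
Each row is a member and each point a coefficient against vehicle (log2, with SE) for UK5099 (orange), butyrate (blue) and the combination (purple); filled points were called and dotted lines mark -1 and 1. The left panel is limma on log2(TPM + 1) and the right panel is voom on fragments, where low genes such as Gbp3, Rtp4 and Mx2 move left to between -1.94 and -3.84.

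All 3 members around PARP9 were lower in each treatment. Parp9, a macrodomain protein, and Dtx3l, a ubiquitin ligase that pairs with it, are neighbours on chromosome 16, at 35758840 to 35792976 and 35746881 to 35759522, and Parp14 lies nearby. Dtx3l was at 30.0, 30.4 and 27.4 TPM with vehicle, 12.3, 11.4 and 12.2 with UK5099, 10.99, 10.5 and 11.6 with butyrate, and 7.09, 7.12 and 7.33 with the combination. Dtx3l (-1.22, -1.33 and -1.89) and Parp14 (-1.17, -1.49 and -1.81) fell in all 3 comparisons. Parp9 fell with butyrate (-1.06) and with the combination (-1.41) and had a coefficient of -0.89 with UK5099. Its butyrate coefficient was -0.95 on the voom scale and -0.79 under median of ratios scaling, so this call depends on the scale. Parp9 and Dtx3l overlap at their ends in the table, by listed span.

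Of the 10 other effectors, 5 fell with UK5099, 5 with butyrate and 5 in the combination. Ifi44, Rsad2, Cmpk2 and Xaf1 were among them in each comparison. With UK5099 the coefficient of Xaf1 sat at the limit (-1.004 ± 0.09), and under median of ratios scaling Xaf1 (-0.87) and Rsad2 (-0.98) were short of it, which left 3 of the 10. Rsad2 encodes viperin, an antiviral enzyme, and Cmpk2, a nucleotide kinase that supplies it, is its neighbour on chromosome 12. Cmpk2 was at 1.97, 2.17 and 1.40 TPM with vehicle, 0.343, 0.111 and 0.114 with UK5099, 0.131, 0.131 and 0.183 with butyrate, and 0.0426, 0.0852 and 0.0719 with the combination. In fragments that was 124 to 148 per vehicle sample and 5 to 27 per treated sample. Ifi44 had 298 to 367 fragments with vehicle, 31 to 75 with UK5099, 35 to 39 with butyrate and 13 to 22 in the combination, with no overlap between the combination and either single treatment.

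Bst2 and Samd9l set the treatments apart. Bst2, or tetherin, holds budding viruses at the cell surface, and was at 11.3, 12.02 and 10.97 TPM with vehicle, 3.16, 3.63 and 2.83 with UK5099, 7.0, 6.17 and 7.07 with butyrate, and 5.64, 6.13 and 4.15 with the combination. It fell with UK5099 (-1.57 ± 0.12, adjusted p = 4.53e-06), while its butyrate coefficient was -0.68 ± 0.12. Butyrate lay above UK5099 by 0.88 ± 0.12 (adjusted p = 0.000172), under the limit for a call, and by 1.25 ± 0.14 on the voom scale, where it was called. The combination also lay above UK5099 alone for Bst2, by 0.57 ± 0.12 (adjusted p = 0.00233).

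Samd9l, an antiviral and growth-restraining protein, went the other way. It was at 11.8, 11.5 and 11.1 TPM with vehicle, 5.94, 5.84 and 6.505 with UK5099, 3.28, 3.04 and 2.85 with butyrate, and 2.81, 2.43 and 2.37 with the combination. It fell with butyrate (-1.62 ± 0.06) and had a coefficient of -0.82 ± 0.06 with UK5099. Butyrate lay below UK5099 by 0.81 ± 0.06 (adjusted p = 2.57e-06), a difference past the adjusted p and under the limit of 1.

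Isg20 was higher with butyrate than with UK5099. It encodes an exonuclease that degrades viral RNA, and was at 34.9, 34.1 and 33.1 TPM with vehicle, 17.6, 16.0 and 17.4 with UK5099, 41.6, 40.3 and 41.6 with butyrate, and 22.3, 19.6 and 19.4 with the combination. All butyrate samples lay above vehicle, though the coefficient of 0.27 ± 0.05 was no call, and all UK5099 samples lay well below it (-0.96 ± 0.05). Butyrate and UK5099 differed by 1.23 ± 0.05 (adjusted p = 1.03e-07), the sole member called between the single treatments, where 1.86% of all genes were called in either direction. Its interaction was -0.01 ± 0.08, so on this scale the combination stood where the sum of both coefficients put it.

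Ifi27 and Ifi35 completed the group of effectors. Ifi27, a mitochondrial and nuclear membrane protein, was at 8.09, 8.22 and 8.09 TPM with vehicle, 5.44, 4.74 and 5.13 with UK5099, 7.92, 6.61 and 7.39 with butyrate, and 8.84, 8.41 and 8.51 with the combination. Its coefficient with the combination was 0.07 ± 0.06, and its voom coefficient 0.54 ± 0.08. Ifi35 had coefficients of -0.42, -0.82 and -0.78, none called.

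The direct comparisons between treatments called fewer members than the comparisons with vehicle. Between butyrate and UK5099, 1 member was called, and it was higher with butyrate, as were 0.681% of all genes. At an adjusted p under 0.05, 15 were lower with butyrate and 6 higher, against 32.2% and 13.5% of all genes, and voom called 4, all higher with butyrate: Isg20, Bst2, Ifit2 and Oas2, against 4.45%. Against UK5099 alone, the combination called 1 member, Samd9l, at a coefficient of -1.01 ± 0.06, where 1.97% of all genes were called, 1.15% lower and 0.823% higher. The limit of an adjusted p under 0.05 gave 25 lower and 3 higher, against 40.0% and 10.4% of all genes. Voom called 3 lower (Ifi44, Oasl2 and Gbp2, against 2.36%) and 2 higher (Bst2 and Ifi27, against 5.64%), and gave Samd9l -0.95. The limma call of Samd9l sits at the limit and was lost without UK5099 replicate 3, without UK5099+Butyrate replicate 2 or without UK5099+Butyrate replicate 3, which left 0.

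Against butyrate alone, the combination called 0 of 46 members by limma, where 0.908% of all genes were called, 0.357% lower and 0.551% higher. At an adjusted p under 0.05, 18 were lower and 1 higher, against 29.0% and 7.68% of all genes, and at an unadjusted p under 0.05, 21 were lower and 1 higher. The samples lay below those of butyrate in 28 members, against 36.6% of all genes. Voom called 1 lower (Ifi44, -1.15 ± 0.32, adjusted p = 0.007), against 1.44%, and median of ratios scaling called 0. Isg20 had a coefficient of -0.98 ± 0.05 in this comparison and was called once UK5099+Butyrate replicate 1 was left out.

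The combination reduced most members by less than the sum of both single coefficients. The interaction was called higher for 7 members and lower for 0, where 0.515% of all genes were called higher, 0.499% lower and 1.01% in either direction. At an adjusted p under 0.05 it was positive in 36 members, against 11.5% of all genes, and negative in 0, also at an unadjusted p. It was above 0 in 44 of 46 members, with a median of 0.56. The 7 were Oasl2 (1.85 ± 0.11), Isg15 (1.60 ± 0.30), Ifit3 (1.36 ± 0.27), Bst2 (1.26 ± 0.17), Ifi44 (1.21 ± 0.12), Cmpk2 (1.15 ± 0.15) and Irf7 (1.04 ± 0.14).

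Part of this interaction is set by the scale, since log2(TPM + 1) cannot go below 0. For Ifit3, Oasl2, Ifi44 and Cmpk2 the sum of the single coefficients would lie below 0, and the floor alone requires an interaction of at least 1.19, 1.18, 1.09 and 1.06. For Isg15 it requires 0.13 of the 1.60, and for Irf7 and Bst2 nothing. On the voom scale, which has no such floor, 13 members had a called interaction, all positive, against 1.21% of all genes called higher and 1.49% lower, and the median was 0.86. Irf7 (1.07 ± 0.12), Bst2 (1.47 ± 0.20), Oasl2 (1.96 ± 0.18) and Isg15 (1.63 ± 0.36) were called there, and Ifit3 (1.62 ± 0.70) was not.

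The number of called interactions depended on single libraries. It was 11 without UK5099 replicate 1, where Ifit1, Ifit3b, Rsad2 and Xaf1 joined, and also 11 without both that library and UK5099+Butyrate replicate 1. It was 4 without Vehicle replicate 2, without UK5099 replicate 3 or without Butyrate replicate 1, and those 4 were Bst2, Cmpk2, Ifi44 and Oasl2 each time. The interaction of Isg15 was called without Vehicle replicate 3, UK5099 replicate 1 or UK5099+Butyrate replicate 2 and lost without any other single library, with adjusted p up to 0.0133. That of Ifit3 was called without UK5099 replicate 1 and lost without any other, with adjusted p up to 0.0168.

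**Figure D4:**
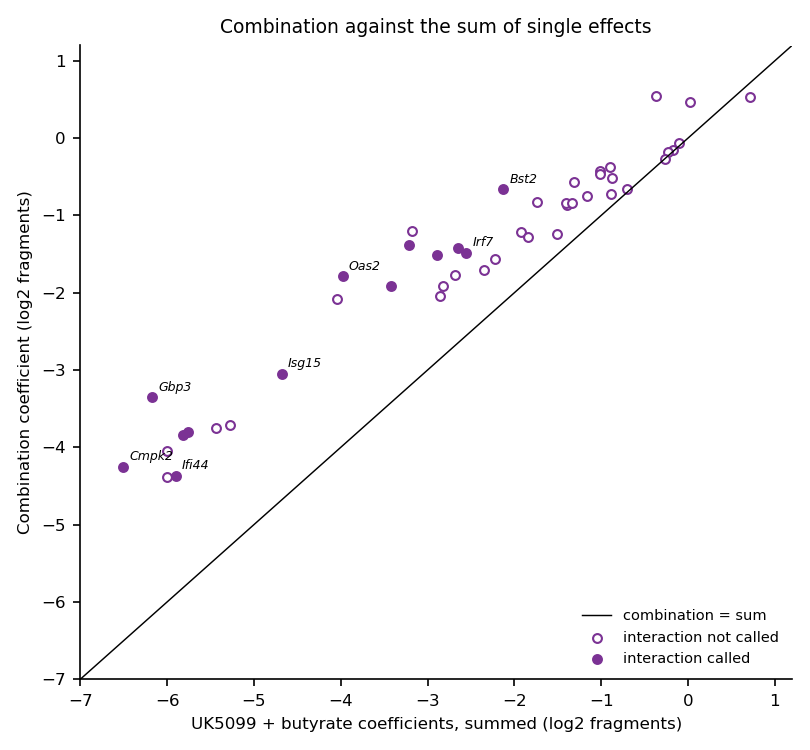
Each point is a member, with the sum of its UK5099 and butyrate voom coefficients on the horizontal axis and its combination coefficient on the vertical axis (both log2 fragments against vehicle). The line marks equality and filled points have a called interaction; 44 of 46 points lie above the line, and Gbp3, Cmpk2 and Oas2 are among those farthest from it. Both axes use the same vehicle samples.

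For members with and without an ISRE core in the promoter, the median coefficients on log2(TPM + 1) were -0.70 (n = 15) and -0.67 (n = 20) for UK5099, -0.94 and -0.98 for butyrate, and -1.09 and -1.05 for the combination. On the voom scale the medians were -1.65 and -0.81 for UK5099, -1.57 and -0.87 for butyrate, and -1.51 and -0.97 for the combination. These are descriptions of 35 members with no test.

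Effectors of the pathway outside the set were lower more often than higher. Of 67 other interferon-stimulated genes listed, 62 were in the table. With UK5099, 9 fell and 0 rose by limma, beside 0.912% and 0.928% of all genes, with 0 higher at an unadjusted p under 0.05. Voom called 23 of them lower and 0 higher, beside 2.77% and 3.03% of all genes. With butyrate 13 fell and 1 rose, beside 2.42% and 1.13% of all genes, and voom called 24 lower and 2 higher, beside 3.70% and 6.84%. With the combination 17 fell and 0 rose, beside 4.63% and 1.79% of all genes, with 2 higher at an adjusted p under 0.05. There voom called 24 lower and 2 higher (Ifitm1 and Sp110), beside 5.44% and 8.61% of all genes. Irgm1, a GTPase of autophagy and pathogen defence, was at 24.2, 22.9 and 24.4 TPM with vehicle, 6.44, 5.17 and 5.45 with UK5099, 4.34, 4.77 and 4.39 with butyrate, and 3.51, 3.76 and 3.45 with the combination. Uba7, which activates ISG15 for conjugation, was at 6.67, 6.46 and 6.67 TPM with vehicle, 1.83, 1.72 and 1.88 with UK5099, 1.69, 1.90 and 1.87 with butyrate, and 0.752, 0.706 and 0.634 with the combination. The single treatments overlapped for Uba7 and the combination lay below both.

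The genes of this list that voom called higher with butyrate were Ifitm1 and Sp110. Sp110 had a mean of 0.122 TPM with vehicle and 0.751 with butyrate. Ifitm1, a membrane protein that hinders viral entry, was the 1 gene of the list that rose with butyrate by limma. It was at 5.49, 8.03 and 7.63 TPM with vehicle, 7.79, 7.61 and 7.28 with UK5099, 22.2, 24.8 and 25.1 with butyrate, and 10.6, 12.1 and 11.8 with the combination. It rose with butyrate by 1.65 ± 0.11 (adjusted p = 9.71e-07), and the combination lay between vehicle and butyrate.

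Upstream genes moved in both directions. Of 24 further signalling genes, 1 fell with UK5099, 4 fell and 2 rose with butyrate, and 3 fell and 2 rose with the combination. Tlr3, a sensor of viral RNA in endosomes, fell in each comparison, from 9.44, 8.79 and 8.39 TPM with vehicle to 3.01, 3.14 and 3.13 with UK5099, 2.67, 2.74 and 2.86 with butyrate, and 1.44, 1.16 and 1.32 with the combination. The genes that rose with butyrate and with the combination were Socs1 and Socs3, feedback inhibitors of cytokine receptor signalling. Socs1 went from 1.97, 1.37 and 1.71 TPM with vehicle to 5.46, 5.32 and 5.09 with butyrate and 6.27, 7.30 and 6.81 with the combination, and was at 2.29, 1.98 and 1.80 with UK5099. Socs3 was at 7.43 ± 0.459 TPM with vehicle and 13.1 ± 0.722 with UK5099 (SD, n = 3). It reached 19.7 ± 0.611 TPM with butyrate and 21.7 ± 0.705 with the combination, by coefficients of 1.297 and 1.43 against vehicle.

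Of 21 interferon genes listed, 3 were in the table (Ifne, Ifnk and Ifnz) and the others were not analysed here. Ifne encodes interferon epsilon, a type I interferon made by epithelia of the reproductive tract. Ifne was at 1.82, 2.35 and 3.25 TPM with vehicle, 3.45, 3.34 and 4.005 with UK5099, 9.21, 8.92 and 8.78 with butyrate, and 3.00, 3.79 and 5.32 with the combination. That was 8 to 18 fragments per sample with vehicle and 51 to 57 with butyrate. It rose with butyrate by 1.54 ± 0.18 (adjusted p = 4.2e-05) and had a coefficient of 0.53 ± 0.18 with the combination (adjusted p = 0.0275), where voom called it higher by 1.11 ± 0.32. Ifnk had at most 3 fragments in any sample.

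**Figure D5:**
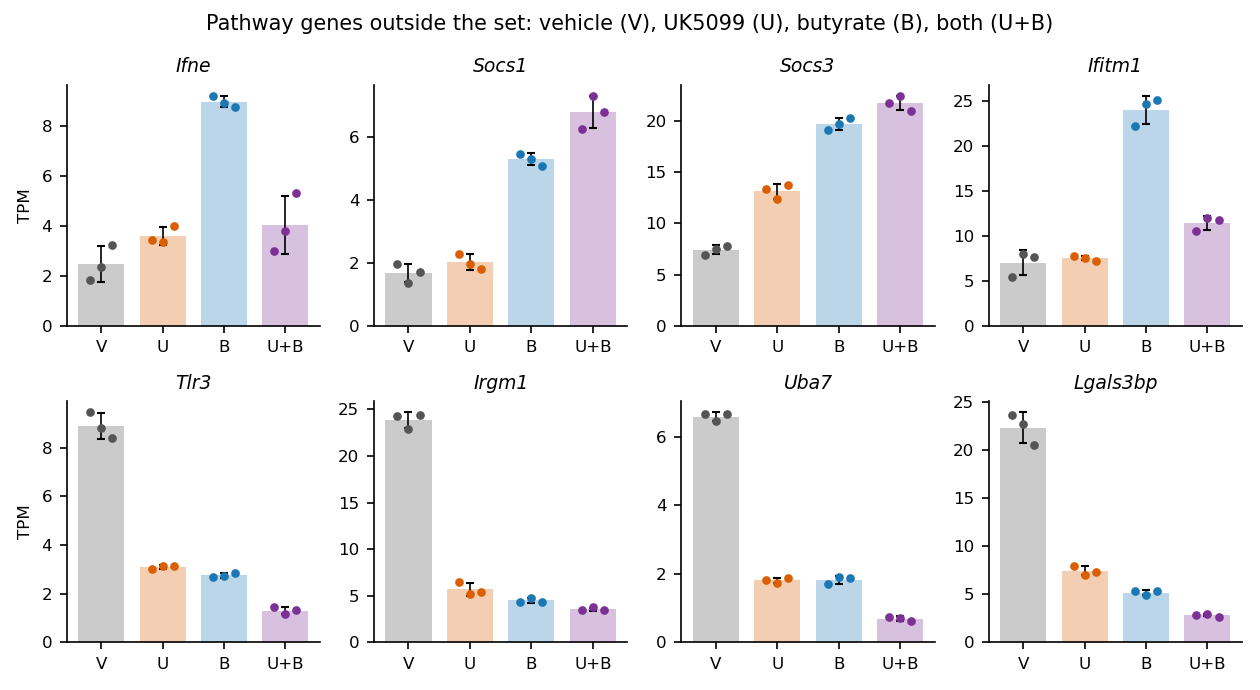
Panels show 8 pathway genes outside the set, picked after their values were seen, with TPM on the vertical axis from 0 and groups V (vehicle), U (UK5099), B (butyrate) and U+B (combination). Bars are means, error bars SD (n = 3) and points samples; Ifne and Ifitm1 peak with butyrate, Socs1 and Socs3 are highest with the combination, and the lower 4 panels are highest with vehicle.

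Markers of other cells were checked, since immune cells also express interferon-stimulated genes. Ptprc, which marks all leukocytes, had a group mean of at most 0.00163 TPM, with 0 to 4 fragments per sample. Of 12 immune markers 5 were in the table, and their sum ranged over 24.0 to 25.1 TPM with vehicle, 29.8 to 31.1 with UK5099, 66.8 to 69.3 with butyrate and 87.1 to 97.7 in the combination. Nearly all of that was Cd68, a lysosomal protein, and the other 4 were under 1 TPM in every group. The sum of 7 fibroblast markers was 2.34 to 2.49 TPM with vehicle and 10.7 to 11.03 with butyrate, mostly Dcn, and that of 5 endothelial markers stayed under 2 TPM.

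Sums of epithelial markers also differed between groups. The sum of 6 luminal markers was 4197 to 4368 TPM with vehicle, 2375 to 2536 with UK5099, 2297 to 2338 with butyrate and 1427 to 1612 in the combination. The sum of 8 squamous markers was 441 to 455 TPM with vehicle, 2096 to 2493 with UK5099, 972 to 1031 with butyrate and 3110 to 4227 in the combination. The sum of 7 basal markers was 7230 to 7376 TPM with vehicle, 13920 to 14320 with UK5099, 7191 to 7429 with butyrate, which overlapped vehicle, and 10160 to 10570 in the combination, and all 7 were above 1 TPM in every group. The keratins Krt5, Krt14 and Krt15 were most of that sum, and with butyrate they moved in opposite directions. Krt5 was at 1848 ± 8.64 TPM with vehicle and 3152 ± 72.3 with butyrate (SD, n = 3). Krt14 went from 1676 ± 22.2 to 1391 ± 36.1 TPM and Krt15 from 3029 ± 61.0 to 2426 ± 28.5. Epcam, an adhesion protein of epithelia, was at 536 ± 8.39 TPM with vehicle and 303 ± 7.84 with UK5099 (SD, n = 3). It was lower still with butyrate (170 ± 1.12) and with the combination (95.4 ± 3.65), and fell in both. The part of these shifts in the levels of the interferon genes was not tested.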

How the data were processed

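RNA was sequenced from 12 organoid samples. The deposited table gives TPM per gene. Per the study's methods, the authors used fastp for trimming, STAR with GRCm38 for alignment and RSEM for quantification, while the submitters' processing notes name STAR 2.7.9a, Partek and build GRCm39. Coordinates are printed as the table lists them, with the build uncertain, and promoter coordinates are GRCm38.p6. The labels and the methods also name different library kits and sequencers.

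Stop minus start equals the length column for 100% of genes, so the deposited TPM divides by genomic span, introns included, and sums to 1000000 per sample. This lowers the TPM of long genes and strengthens the floor for them. Low values were whole multiples of 1 fragment: between 75.4% and 76.6% of protein-coding values under 1000 fragments were whole within 0.02. Depth was 33251845 to 43498958 fragments.

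Groups came from the sample labels. Following the study's methods, limma 3.58.1 in R 4.3.3 was fitted to log2(TPM + 1) of all 24674 genes and 12 samples, with an intercept, UK5099, butyrate and their interaction, empirical Bayes moderation and Benjamini-Hochberg adjustment over all genes. The pseudocount of 1 was chosen here, since the methods state none. Contrasts gave the combination and the direct comparisons. No filter was used. Alternatives were median of ratios and quantile scaling, pseudocounts of 0.1, 0.01 and 5, a filter at 1 TPM, voom on fragments, a replicate block, each sample left out and other thresholds. TPM with exonic length (23913 genes) and a fit without both libraries that stand apart were added after seeing the data.

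The members, the lists and the motifs were chosen with earlier results of these data known. Values per sample were printed by rule for the receptors, the transcription factors, Isg15, the 5 members with the largest coefficients for UK5099 and for butyrate and the 3 largest for the combination and the interaction, among members that reached 1 TPM in a group, and other genes were chosen after their values were seen. All replicate pairs differed by more than sampling noise. Simulated fragments of 24674 genes served as a test, and the model recovered 188 of 200 genes changed for UK5099 against vehicle, 146 of 146 of those at 4 TPM or more, with 0 unchanged genes called. The changed genes averaged at least 200 fragments with vehicle and were changed 4-fold. All simulated libraries had the same small spread, and none stood apart. The test does not cover members with fewer fragments, smaller changes or libraries that stand apart. Python 3.11.15 was used with scipy 1.17.1, pandas 2.3.3, numpy 2.4.6 and matplotlib 3.10.9.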

Additional observations from a re-analysis of the deposited data

Results flagged for a closer look

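In 7 members UK5099 had unlike effects in the absence and presence of butyrate, by the interaction term of the limma fit (adjusted p under 0.01 and an absolute value over 1). The interaction was 1.85 for Oasl2, 1.60 for Isg15, 1.36 for Ifit3, 1.26 for Bst2, 1.21 for Ifi44, 1.15 for Cmpk2 and 1.04 for Irf7, all positive, so that UK5099 lowered each gene less when butyrate was present. The floor of log2(TPM + 1) alone requires 1.18 for Oasl2, 0.13 for Isg15, 1.19 for Ifit3, 1.09 for Ifi44 and 1.06 for Cmpk2, and 0 for Bst2 and Irf7. On the voom scale the values were 1.96 for Oasl2, 1.63 for Isg15, 1.62 for Ifit3 (not called, adjusted p = 0.11), 1.47 for Bst2, 1.54 for Ifi44, 2.26 for Cmpk2 and 1.07 for Irf7. Without UK5099 replicate 1, the interactions of Isg15 and Ifit3 were 1.86 and 1.62. Without UK5099+Butyrate replicate 1, their adjusted p-values were 0.0121 and 0.0153, above the limit of 0.01.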

How the results depend on the processing

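With all samples, 15 members were called for UK5099, 19 for butyrate, 22 for the combination, 7 for the interaction, 0 for the combination against butyrate, 1 for the combination against UK5099 and 1 for butyrate against UK5099. In that order, a pseudocount of 0.1 gave 25, 30, 35, 12, 1, 6 and 2, and a pseudocount of 0.01 gave 26, 30, 35, 9, 2, 7 and 3. A pseudocount of 5 gave 5, 8, 9 and 2 for the first 4 and 0 for the combination against UK5099. Voom gave 25, 23, 26, 13, 1, 5 and 4. Calls over all genes moved as well. For UK5099, butyrate and the combination against vehicle they were 454, 874 and 1585 of 24674 with a pseudocount of 1. They were 1034, 1955 and 3292 with 0.1, and 1412, 2573 and 4118 with 0.01. A pseudocount of 5 gave 183, 375 and 653 over all genes, and voom 1431, 2600 and 3467. Median of ratios scaling gave 0 for the combination against UK5099 and 2 for butyrate against UK5099, and quantile normalisation gave 12 for butyrate, 0 and 2. TPM with exonic length gave 2 for butyrate against UK5099. Without both libraries that stand apart, the interaction had 11 calls and the combination against butyrate 1. An adjusted p under 0.05 with no limit on the coefficient gave 43, 43, 43, 36, 19, 28 and 21, and an adjusted p under 0.01 with a limit of 0.58 gave 29, 32, 35, 19, 1, 7 and 3. The filter at 1 TPM gave 11, 14, 17 and 5 for the first 4. It takes genes with a lower mean over all samples out of the fit, so these counts are not out of the full set. Cmpk2, Rsad2, Ifi44, Ifit3b and Gbp2, each called in some comparison with all genes, were among those taken out.

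Leaving out each sample in turn gave 12 to 15, 18 to 19, 21 to 23, 4 to 11, 0 to 1, 0 to 1 and 1 to 1. Replicate numbers did not pair the samples: 18 correlations of deviations from the group means lay between -0.107 and 0.029. A replicate block gave 15, 19, 22, 6, 0, 1 and 1.

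The direction turned for genes near 0. The UK5099 coefficient of Irf3 became 0.021 under median of ratios scaling and 0.023 under voom, and that of Ifnar2 0.017, 0.003 under quantile normalisation and 0.024 under voom. The interaction of Irf3 was -0.014 without Vehicle replicate 2, and that of Ifnar2 was -0.017 without UK5099 replicate 1, -0.034 without Butyrate replicate 1 and -0.013 without both libraries that stand apart. Over all samples left out in turn, the interaction of Irf3 ranged from -0.014 to 0.064 and that of Ifnar2 from -0.034 to 0.078. The cause was not tested. Low counts limit Gbp3, Oas2, Zbp1 and Mx2, whose voom errors reach 0.40.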
